A study of Mus musculus with 4 samples.

Results

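The genes described here repair DNA double-strand breaks and crosslinks between DNA strands. They were chosen by name from a fixed list of 46 genes, and 45 of them had a row among the 24190 gene symbols. The 9 damage signalling genes were Atm, Atr, Atrip, Chek1, Chek2, Mdc1, Trp53bp1, H2afx and Topbp1. The 16 recombination genes were Brca1, Brca2, Bard1, Palb2, Rad51c, Rad51d, Rad52, Rad54l, Rad50, Mre11a, Nbn, Rbbp8, Exo1, Blm, Xrcc2 and Xrcc3. The 11 Fanconi genes were Fanca, Fancc, Fancd2, Fance, Fancf, Fancg, Fanci, Fancl, Fancm, Brip1 and Slx4, and Fancb was not analysed here. The 9 end joining genes were Xrcc4, Xrcc5, Xrcc6, Prkdc, Lig4, Lig3, Nhej1, Polq and Parp1.

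Poly-A RNA was sequenced from E14 (ES-E14TG2a) cells, an established male mouse embryonic stem cell line, grown without serum in the presence of a MEK inhibitor and a GSK3β inhibitor. Both lines studied were clonal and carried an integrated Zscan4c promoter, which drove GFP in the GFP line and a GFP-Zscan4c fusion protein in the fusion line. Each line was sorted into GFP-negative cells, labelled pluripotent, and GFP-positive cells, labelled 2C-like after the 2-cell embryo whose genes they express. The series as a whole concerns Zscan4 and the protection of 2-cell embryos from DNA damage, and repair genes were read here in that setting. Each of the 4 populations was 1 library, so no value below has a replicate error, and in each line the clone and its construct cannot be told apart.

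Embryonic stem cells divide fast and spend much of the cycle in S phase, so breaks at replication forks are a constant load on them. A break is first marked by the kinases ATM and ATR and their partners. It is then either cut back and copied from the sister chromatid by recombination or rejoined directly by end joining. Crosslinked strands are first recognised and unhooked by the Fanconi proteins, which pass the resulting break to recombination.

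Each library is the negative or the positive library of its line. Values are TPM, a length-scaled share of all transcripts, summed over the listed transcripts of a gene. Ratios are differences of log2(TPM + 1), GFP-positive over GFP-negative, which understate the change of low genes. A gene is called 2-fold apart where that difference is 1 or more in size and at least 1 of the libraries compared is at 5 TPM or more. This is a fold, not a test. In bulk RNA, fewer cells expressing a gene and less of its RNA per cell cannot be told apart.

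Of the 4 libraries, 1 was unlike the rest, the negative library of the GFP line. Of all symbols, 48.4% were listed at 0 in it, against 11.6% to 19.5% in the others, and 14 of the 45 repair genes were among them. A gene is therefore called listed at 0 rather than absent, and the fusion line is the main comparison. Listed markers of the 2-cell embryo were read beside the sort. All 13 that reached 5 TPM in the fusion line were 2-fold or more higher in GFP-positive cells, against 8.23% of all genes. In the GFP line 14 of 14 were, against 33.2%. Each was at 4.11 TPM or less in GFP-negative cells of the fusion line, so these markers reached 5 TPM only through the positive library. The same held in the GFP line for all but Zscan4c and Dppa2. Zscan4c also gave the promoter that drives GFP, so these counts do not test the sort. The pluripotency markers Pou5f1, Sox2, Nanog and 7 others summed to between 3292 and 6779 TPM in every library. In the fusion line 2 of these 10 were 2-fold or more higher in GFP-positive cells, Dppa5a at 41.4 and 2280 TPM and Klf4 at 40.1 and 118 TPM. In the GFP line Dppa5a was at 2729 and 2291 TPM and Klf4, 2-fold lower in GFP-positive cells, at 187 and 69.5 TPM. Both genes were thus lowest in the negative library of the fusion line. The median log2 ratio of the 10 was -0.01 in the fusion line and -0.37 in the GFP line, where 8 were lower in GFP-positive cells. Of the listed markers of fibroblasts (3), primitive endoderm (5) and trophectoderm (6), Col1a1, Col1a2, Sox7, Foxa2 and Elf5 were at 0.207 TPM or less in each library, and Gata4, Sox17 and Eomes at 3.42 TPM or less. The trophectoderm markers Tfap2c and Tead4 were at 23.3 to 39.4 TPM and 5.39 to 27.2 TPM over the libraries. Krt8 was listed at 0 except for 8.51 TPM in the positive library of the GFP line, and Krt18 was at 5.34 to 5.74 TPM except for 0 as listed in the negative library of that line. Thy1 was at 0 as listed and 7.27 TPM in the fusion line and at 0 as listed and 11.9 TPM in the GFP line. Sparc was at 154 and 33.7 TPM in the fusion line and 249 and 209 TPM in the GFP line. The part of such cells in any repair gene's ratio was not tested.

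As gene sums, most repair genes lay less than 2-fold apart between populations of the fusion line, and so did most of all genes. Of 39 members at 5 TPM or more, 1 was 2-fold or more higher in GFP-positive cells (Atm) and 2 were lower (Rbbp8 and Fancc). Over all 10981 genes, 11.4% lay 2-fold or more apart, 8.23% higher and 3.14% lower. Of the 2-fold calls over all genes 72.4% were higher, and 59.8% under quantile normalization. The members' median log2 ratio was 0.22 and that of all genes 0.14, and under quantile normalization they were -0.06 and -0.04. Of genes above 0 in both libraries, 1 of 37 members was higher and 0 lower, against 6.67% and 3.01% of all such genes (9.68% apart). Among these 37, 27 lay within 0.5 on the log2 scale, which is 73.0%, against 75.9% of all genes. By group the medians were 0.28 for damage signalling, 0.19 for recombination, 0.01 for Fanconi and 0.36 for end joining.

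**Figure D1:**
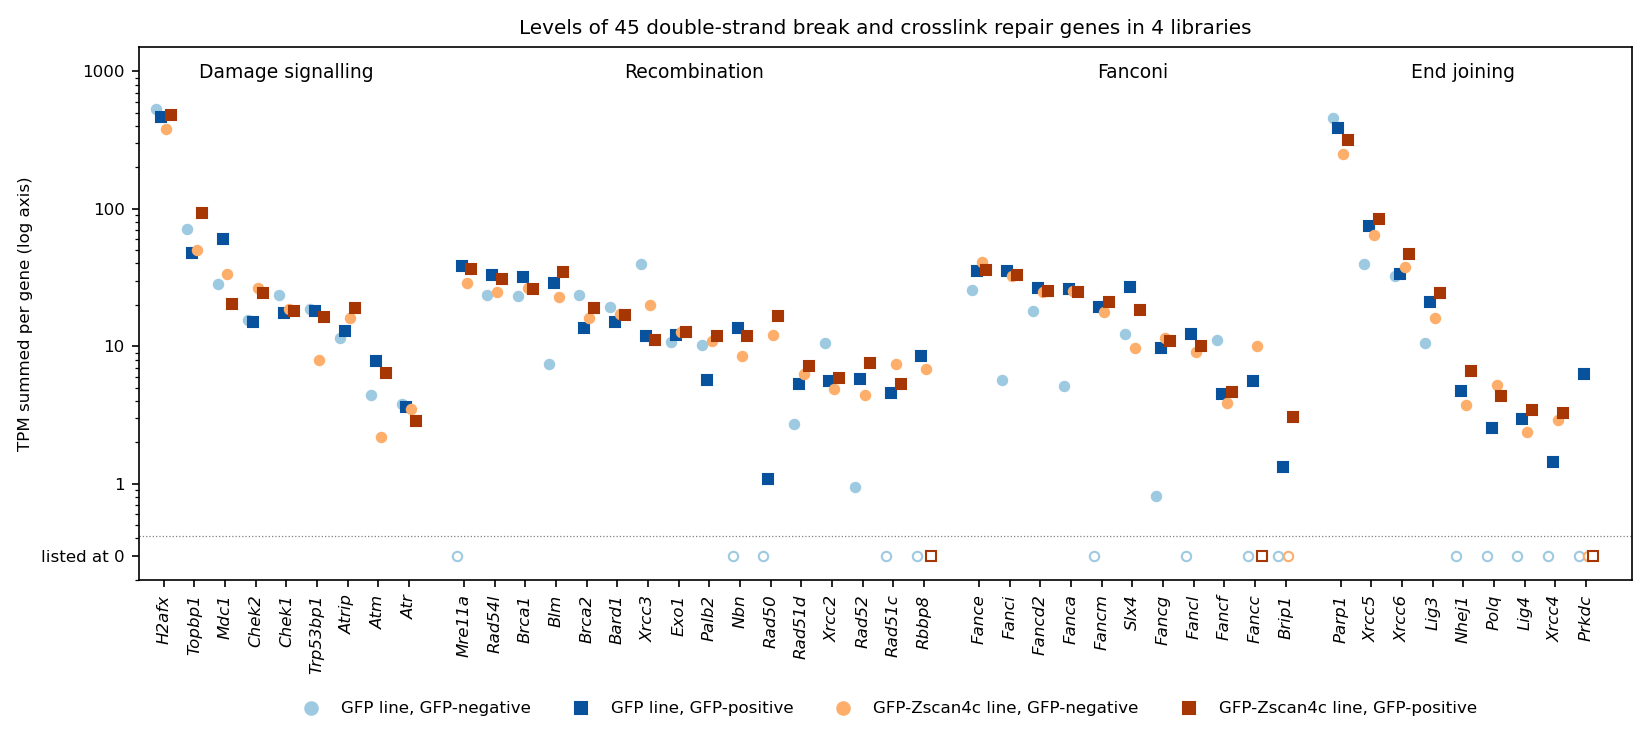
TPM summed per gene on a log axis for each of the 45 repair genes, ordered within their group by median level. Circles are GFP-negative and squares positive libraries, blue for the GFP line and orange for the fusion line, 1 library each. Open symbols on the lowest line are genes listed at 0, of which 14 belong to the negative library of the GFP line. H2afx and Parp1 stand at 249 TPM or more in every library.

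Damage signalling comes first in a repair response. H2afx encodes the histone variant that is phosphorylated around a break, and it was the highest member. Giving the GFP-negative value first, as in every pair of values that follows, it was at 383 and 480 TPM in the fusion line and at 533 and 466 TPM in the GFP line. The lines thus differed in direction, with log2 ratios of 0.32 and -0.19.

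Atm, the kinase that answers double-strand breaks, was at 2.19 and 6.40 TPM in the fusion line and at 4.40 and 7.80 TPM in the GFP line. Both positive libraries were above both GFP-negative ones, with log2 ratios of 1.21 and 0.71, although quantile normalization put the ratio of the GFP line at -0.37. These values came mostly from transcripts that keep an intron. Atm-204, a model of 1243 bases of this kind, was at 1.29 and 4.79 TPM in the fusion line and at 0 as listed and 7.20 TPM in the GFP line. The 1 listed coding model of Atm, a fragment of 602 bases, was at 1.12 TPM in the positive library of the fusion line and listed at 0 in the others, so the level of full-length Atm messenger RNA was not measured here.

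Atr, the kinase that answers single-stranded DNA at stalled forks, was even across the libraries, at 3.52 and 2.84 TPM in the fusion line and 3.79 and 3.62 TPM in the GFP line. None of its 11 listed transcripts is a coding model. Its partner Atrip was at 15.95 and 18.96 TPM in the fusion line and 11.5 and 12.9 TPM in the GFP line. Chek1, the effector kinase of ATR, was at 18.5 and 18.05 TPM in the fusion line and 23.7 and 17.5 TPM in the GFP line. Chek2, the effector kinase of ATM, was at 26.7 and 24.6 TPM in the fusion line and 15.6 and 15.1 TPM in the GFP line. As a gene sum neither effector kinase was 2-fold apart in either line, and for Chek2 the gap between lines was wider than that between populations. With coding transcripts only, Chek1 was at 5.32 and 12.9 TPM in the fusion line and 9.55 and 13.9 TPM in the GFP line. The log2 ratios were then 1.13 and 0.50. A listed Chek1 transcript without a GENCODE match was at 11.6 and 3.04 TPM in the fusion line. In the GFP line that transcript was at 0 as listed and 2.24 TPM.

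In the fusion line the largest ratios of this group after Atm belonged to Trp53bp1 and Topbp1. Trp53bp1, whose protein holds back end resection and favours end joining, was at 8.002 and 16.4 TPM in the fusion line and at 18.5 and 17.96 TPM in the GFP line. The negative library of the fusion line was the low one, and the log2 ratios were 0.95 and -0.04. Topbp1, the activator of ATR, was at 49.98 and 93.8 TPM in the fusion line and at 71.1 and 47.4 TPM in the GFP line, with log2 ratios of 0.90 and -0.58, the latter being 0.14 with coding transcripts only. As gene sums the lines went opposite ways, although the models Topbp1-201 and Topbp1-203, described further on, each went the same way in both.

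Mdc1, the adaptor that binds phosphorylated H2AX and gathers other factors there, had the lowest ratio of the signalling genes in the fusion line and the highest in the GFP line. It was at 33.6 and 20.2 TPM in the fusion line and at 28.4 and 60.4 TPM in the GFP line, with log2 ratios of -0.71 and 1.06. Much of the difference lay in Mdc1-202, a coding fragment of 422 bases, which was at 16.9 and 0.575 TPM in the fusion line and at 5.68 and 24.7 TPM in the GFP line. The long model Mdc1-201 was at 16.7 and 19.6 TPM in the fusion line and 22.8 and 35.8 TPM in the GFP line, higher in GFP-positive cells of both.

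None of the 15 recombination genes above 0 in both populations of the fusion line was 2-fold apart there. Over all such genes at 5 TPM or more, 9.68% were 2-fold or more apart. Brca1 and Bard1, which form the ubiquitin ligase that opens the recombination route, were nearly equal in both populations of the fusion line. Brca1 was at 26.6 and 26.3 TPM there and at 23.2 and 32.1 TPM in the GFP line. Bard1 was at 17.2 and 17.004 TPM in the fusion line and 19.4 and 14.9 TPM in the GFP line. Brca2, a mediator of homologous recombination, was at 16.0 and 18.9 TPM in the fusion line and 23.8 and 13.6 TPM in the GFP line. Palb2, which ties the BRCA1 and BRCA2 proteins together, was at 10.99 and 11.8 TPM in the fusion line and 10.2 and 5.72 TPM in the GFP line. Summed over these 4 genes, the libraries ranged from 66.3 to 76.6 TPM, and their coding transcripts from 41.8 TPM in the negative library of the GFP line to 65.7 TPM.

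The MRN complex binds broken ends and begins their resection. Mre11a, its nuclease, was at 28.8 and 36.3 TPM in the fusion line and at 0 as listed and 38.2 TPM in the GFP line. Nbn, its subunit that recruits ATM, was at 8.45 and 11.9 TPM in the fusion line and at 0 as listed and 13.5 TPM in the GFP line. Rad50, its ATPase, was at 12.0 and 16.5 TPM in the fusion line and at 0 as listed and 1.09 TPM in the GFP line. In the fusion line the 3 subunits were a little higher together in GFP-positive cells, with log2 ratios of 0.32 to 0.45, and none reached 2-fold, but with coding transcripts only Rad50 was at -0.30. In the GFP line all 3 were listed at 0 in GFP-negative cells, so no ratio of the complex can be given there.

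Resection continues with Rbbp8, Exo1 and Blm. Rbbp8, the MRN cofactor also known as CtIP, had 1 listed transcript, at 6.87 TPM and 0 as listed in the fusion line and at 0 as listed and 8.47 TPM in the GFP line. It was thus listed at 0 in opposite populations of the lines. Exo1, an exonuclease, was at 12.7 and 12.6 TPM in the fusion line and 10.7 and 12.1 TPM in the GFP line, the narrowest range over the 4 libraries among the recombination genes. Blm, a helicase, was at 22.9 and 34.7 TPM in the fusion line and at 7.44 and 28.8 TPM in the GFP line, with log2 ratios of 0.58 and 1.82.

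Strand exchange and annealing follow resection. Rad52, an annealing protein, had the highest ratio of the group in the fusion line, where it was at 4.44 and 7.54 TPM, and was at 0.942 and 5.81 TPM in the GFP line. Its listed coding transcripts were at 3.83 and 3.91 TPM in the positive libraries of the fusion and GFP lines and listed at 0 in both GFP-negative ones. Rad54l, a motor protein of recombination that moves along DNA, was at 24.8 and 30.9 TPM in the fusion line and 23.4 and 33.1 TPM in the GFP line.

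Rad51c, Rad51d, Xrcc2 and Xrcc3 are related proteins that act together in recombination. Rad51c was at 7.37 and 5.29 TPM in the fusion line and at 0 as listed and 4.58 TPM in the GFP line. Rad51d was at 6.33 and 7.14 TPM in the fusion line and 2.73 and 5.34 TPM in the GFP line. Xrcc2 was at 4.85 and 5.88 TPM in the fusion line and 10.5 and 5.57 TPM in the GFP line. None of these genes was 2-fold apart in the fusion line. Xrcc3 was lower in GFP-positive cells of both lines, at 19.8 and 11.1 TPM in the fusion line and 39.4 and 11.9 TPM in the GFP line, with log2 ratios of -0.78 and -1.64. Its coding model Xrcc3-201 did not share this: it was at 10.6 and 10.4 TPM in the fusion line and at 0 as listed and 11.6 TPM in the GFP line.

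Among 8 Fanconi genes at 5 TPM or more and above 0 in both fusion line libraries, 7 lay within 0.5 on the log2 scale. Over all such genes, 75.9% did. Fancc and Brip1 had a listed 0. Fancd2 and Fanci encode the pair of proteins that are ubiquitinated at a crosslink. Fancd2 was at 24.8 and 25.04 TPM in the fusion line and 17.96 and 26.6 TPM in the GFP line, and Fanci was at 32.6 and 32.8 TPM in the fusion line and 5.65 and 35.3 TPM in the GFP line. Their log2 ratios were 0.02 and 0.01 in the fusion line. The low value of both genes was in the negative library of the GFP line.

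The Fanconi core complex is the ubiquitin ligase that modifies this pair. Fanca was at 25.03 and 24.7 TPM in the fusion line and 5.13 and 26.3 TPM in the GFP line. Fancg was at 11.5 and 10.9 TPM in the fusion line and 0.817 and 9.64 TPM in the GFP line. Its coding model Fancg-201 was at 3.28 and 0.628 TPM in the fusion line. In the GFP line that model was at 0 as listed and 4.02 TPM. Fance was at 40.9 and 35.9 TPM in the fusion line and 25.5 and 35.1 TPM in the GFP line. As gene sums, Fanca, Fancg and Fance had log2 ratios from -0.18 to -0.02 in the fusion line. Fancl, the catalytic subunit, was at 9.10 and 10.1 TPM in the fusion line and at 0 as listed and 12.3 TPM in the GFP line. Fancm, the translocase that anchors the complex, was at 17.7 and 21.1 TPM in the fusion line and at 0 as listed and 19.2 TPM in the GFP line. Fancf was at 3.84 and 4.64 TPM in the fusion line and 11.1 and 4.47 TPM in the GFP line, where it was 2-fold lower in GFP-positive cells. Fancc was at 10.1 TPM and 0 as listed in the fusion line and at 0 as listed and 5.55 TPM in the GFP line. All 10 of its listed transcripts were at 0 in the positive library of the fusion line. Summed over the 7 core subunits, 3 libraries lay between 107 and 118 TPM and the negative library of the GFP line at 42.5 TPM.

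Of the remaining Fanconi genes, Slx4 encodes the scaffold of the nucleases that unhook a crosslink. It was at 9.63 and 18.4 TPM in the fusion line and 12.3 and 26.8 TPM in the GFP line. Both positive libraries exceeded both GFP-negative ones as gene sums, with log2 ratios of 0.87 and 1.07. The longest listed model, Slx4-201 of 5706 bases, was listed at 0 in both populations of the fusion line. In the GFP line Slx4-201 was at 0 as listed and 11.8 TPM. Much of the fusion line difference lay in short coding models. Slx4-206, of 865 bases, was at 5.88 and 9.40 TPM there, and Slx4-208, of 715 bases, at 0.296 and 5.39 TPM. Brip1, the helicase partner of BRCA1, was at 0 as listed and 3.08 TPM in the fusion line and at 0 as listed and 1.32 TPM in the GFP line. It had the highest ratio of the group in the fusion line, 2.03, and did not reach 5 TPM in any library.

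As gene sums, the 6 end joining genes at 5 TPM or more had the highest group median in the fusion line. With coding transcripts only, the log2 ratio of Parp1 there fell from 0.33 to 0.02 and that of Nhej1 from 0.67 to 0.19. Lig3 rose from 0.57 to 0.65. The rank is therefore given for sums only. Xrcc5 and Xrcc6 encode the Ku proteins that cap a broken end. Xrcc5 was at 64.3 and 84.8 TPM in the fusion line and 39.7 and 75.4 TPM in the GFP line. Xrcc6 was at 37.5 and 46.8 TPM in the fusion line and 32.6 and 33.5 TPM in the GFP line. Both were higher in the positive library of each line, by 0.31 to 0.39 on the log2 scale in the fusion line and by 0.91 and 0.04 in the GFP line, where quantile normalization put Xrcc6 at -0.08.

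Prkdc, the kinase that Ku recruits, had 1 listed transcript, at 6.32 TPM in the positive library of the GFP line and listed at 0 in the other three. The ligation step had low values throughout. Lig4, the ligase, was at 2.37 and 3.41 TPM in the fusion line and at 0 as listed and 2.96 TPM in the GFP line. Its partner Xrcc4 was at 2.93 and 3.24 TPM in the fusion line and at 0 as listed and 1.44 TPM in the GFP line. Nhej1, which bridges the ends, was at 3.74 and 6.55 TPM in the fusion line and at 0 as listed and 4.70 TPM in the GFP line. Summed, these 3 genes were at 9.04 and 13.2 TPM in the fusion line and at 0 as listed and 9.10 TPM in the GFP line. Nhej1 gave the highest ratio of the end joining genes in the fusion line, 0.67 and part of its value came from a model of only 65 bases.

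Alternative end joining uses Polq, Lig3 and Parp1. Polq, the polymerase of that route, was at 5.26 and 4.33 TPM in the fusion line and at 0 as listed and 2.54 TPM in the GFP line, and had the lowest ratio among the end joining genes that reached 5 TPM in the fusion line. Lig3, its ligase, was at 16.0 and 24.2 TPM in the fusion line and 10.5 and 20.9 TPM in the GFP line, higher in GFP-positive cells of both by 0.57 and 0.93 on the log2 scale. Parp1, which senses broken DNA, was at 249 and 314 TPM in the fusion line and 459 and 389 TPM in the GFP line. Its coding model Parp1-201 was at 241 TPM in both populations of the fusion line and at 327 and 308 TPM in the GFP line.

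**Figure D2:**
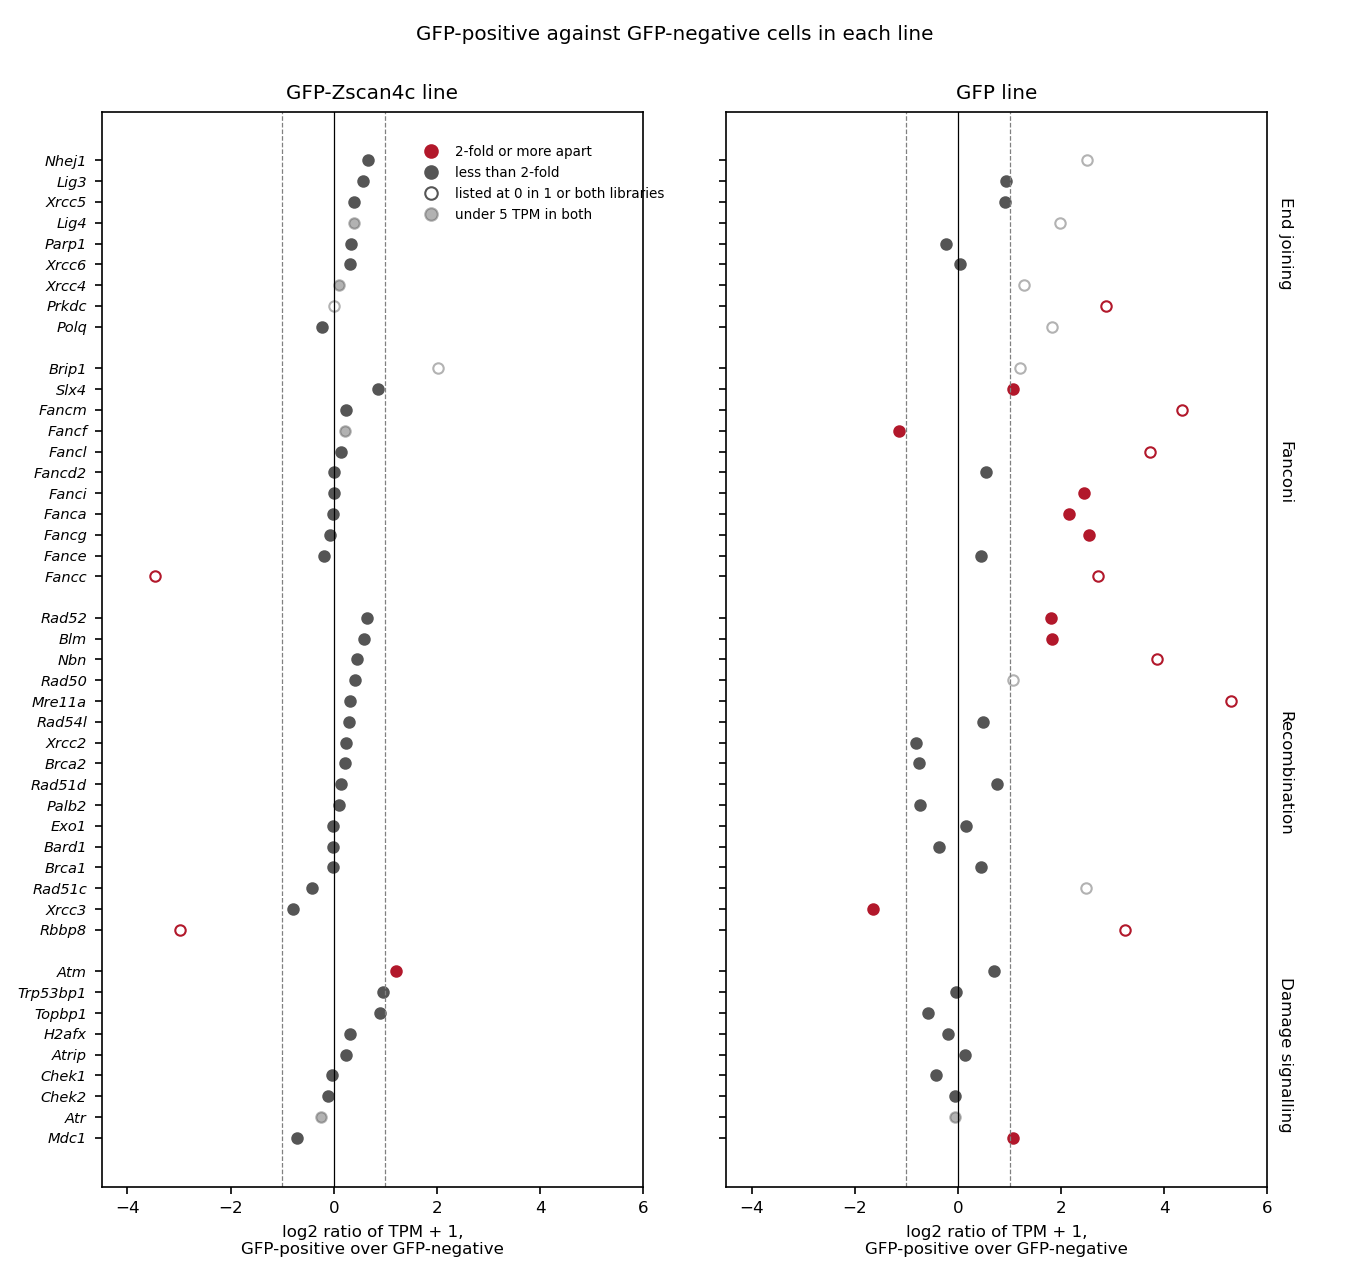
Log2 ratio of TPM + 1, GFP-positive over GFP-negative, for each of the 45 repair genes in the fusion line (left) and the GFP line (right), 1 library per population. Red points are 2-fold or more apart, open points rest on a library listed at 0, pale points are under 5 TPM in both libraries, and dashed lines mark 2-fold. In the fusion line 3 genes are red, and in the GFP line 16.

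In the GFP line 14 of 37 members were 2-fold or more higher in GFP-positive cells and 2, Xrcc3 and Fancf, were lower. Of all 11062 genes there, 40.7% lay 2-fold or more apart, 33.2% higher and 7.48% lower. Of the calls over all genes there, 81.6% were higher, and 65.6% under quantile normalization. The median was 0.54 for the members and 0.19 for all genes. Restricted to genes above 0 in both libraries, 7 of 30 members were higher and 2 lower, against 17.3% and 9.05% of 8904 genes (26.3% apart). Those 7 were Mdc1, Rad52, Blm, Fanca, Fancg, Fanci and Slx4. The Fanconi group held 7 of the 14, and its median was 2.30, against -0.05 for damage signalling. Over the 7 Fanconi genes above 0 in both libraries the median was 1.07, with 4 higher and 1 lower. The 7 Fanconi genes called higher without this restriction were Fanca, Fancc, Fancg, Fanci, Fancl, Fancm and Slx4. In all but Fancc and Slx4 the negative library of the GFP line was below each of the others by more than 2-fold. Fancc, Fancl and Fancm were listed at 0 in that library, so they reached 5 TPM there only through the positive one.

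The 2 lines share no library. Of the 29 members above 0 everywhere, 12 were higher in GFP-positive cells of both lines, 4 were lower in both and 13 were mixed. Over all 8253 such genes, 37.8% were higher in both and 20.3% lower in both. These counts moved with the scaling: 10 members were higher and 5 lower in both under median-ratio scaling, against 29.0% and 30.0% of all genes, and 6 and 8 under quantile normalization, against 21.7% and 37.7%. As gene sums, Blm, Lig3, Rad52, Rad54l, Slx4 and Xrcc5 were higher in both lines under each scaling. The 12 were Atm, Atrip, Blm, Fancd2, Fanci, Lig3, Rad51d, Rad52, Rad54l, Slx4, Xrcc5 and Xrcc6, and the 4 were Bard1, Chek1, Chek2 and Xrcc3. None of the 29 was 2-fold apart the same way in both lines, and of all such genes 2.4% were higher and 0.812% lower.

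Over both lines together, limma with GFP status and line as terms left 1 residual degree of freedom per gene, the disagreement between lines. It called 0 of 14379 genes (0.0%) at a Benjamini-Hochberg adjusted p under 0.05, with a smallest adjusted p of 0.397, and 0 of 44 members. At an unadjusted p under 0.05 it had 972 genes, which is 6.76%, and 1 member, Brip1. Brip1 had a limma estimate of 1.62 with a standard error of 0.39 and an adjusted p of 0.493, and was higher in GFP-positive cells of both lines from libraries listed at 0. With 1 residual degree of freedom the fit has little power even for large changes, so the 0 does not show that the members were alike in both populations.

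GFP-positive cells of the 2 lines could be compared directly, which shares a library with each comparison above. Of 39 members, 1 was 2-fold or more higher in the fusion line (Rad50) and 4 were lower (Mdc1, Rbbp8, Fancc and Prkdc). Of all 11126 genes, 9.76% lay 2-fold or more apart, 5.71% higher and 4.05% lower. The medians were 0.04 for members and 0.05 for all genes. Above 0 in both libraries, 1 of 36 members was higher and 1 lower, against 5.25% and 3.7% of all genes (8.95% apart). Rbbp8, Fancc and Prkdc were the 3 members listed at 0 in the positive library of the fusion line. Topbp1, at 93.8 TPM against 47.4 TPM, lay just under 2-fold on this scale. Rad50 was the one member higher, and its coding model Rad50-201 was at 8.17 TPM in the fusion line and listed at 0 in the GFP line.

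**Figure D3:**
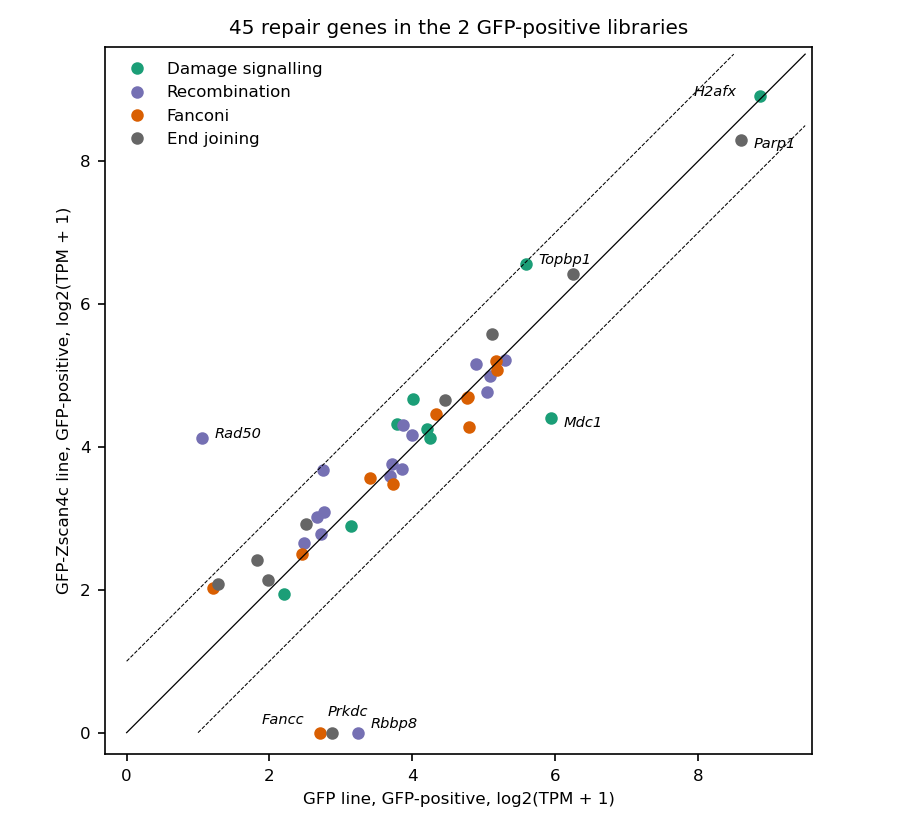
Levels of the 45 repair genes as log2(TPM + 1) in the positive library of the GFP line (x axis) and of the fusion line (y axis), coloured by group. The solid line marks equal levels and the dashed lines 2-fold. Rad50 lies above the band, Mdc1 below it, and Fancc, Prkdc and Rbbp8 lie on the x axis because they were listed at 0 in the fusion line.

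Gene sums hid which transcripts were counted. For the 32 members whose coding transcripts averaged 5 TPM or more in the other libraries, 16 had every coding transcript listed at 0 in the negative library of the GFP line, which is 50%, against 39.4% of 8057 genes. In 9 of the 16 the gene sum was nevertheless above 0, which is 28.1% of the 32 members, against 15.8% of the 8057 genes. Xrcc6 is an example: its coding transcripts were at 33.7 and 40.7 TPM in the fusion line and at 0 as listed and 29.4 TPM in the GFP line, while its sum in that negative library was 32.6 TPM. Brca2, Palb2, Trp53bp1, Atrip, Blm, Fanca, Fancd2 and Xrcc3 did the same. The median coding share of a member's TPM was 47.5% in that library, against 86.7% to 92.5% in the others. Over all genes the share was 91.7% there and 98.3% to 98.5% in the others.

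**Figure D4:**
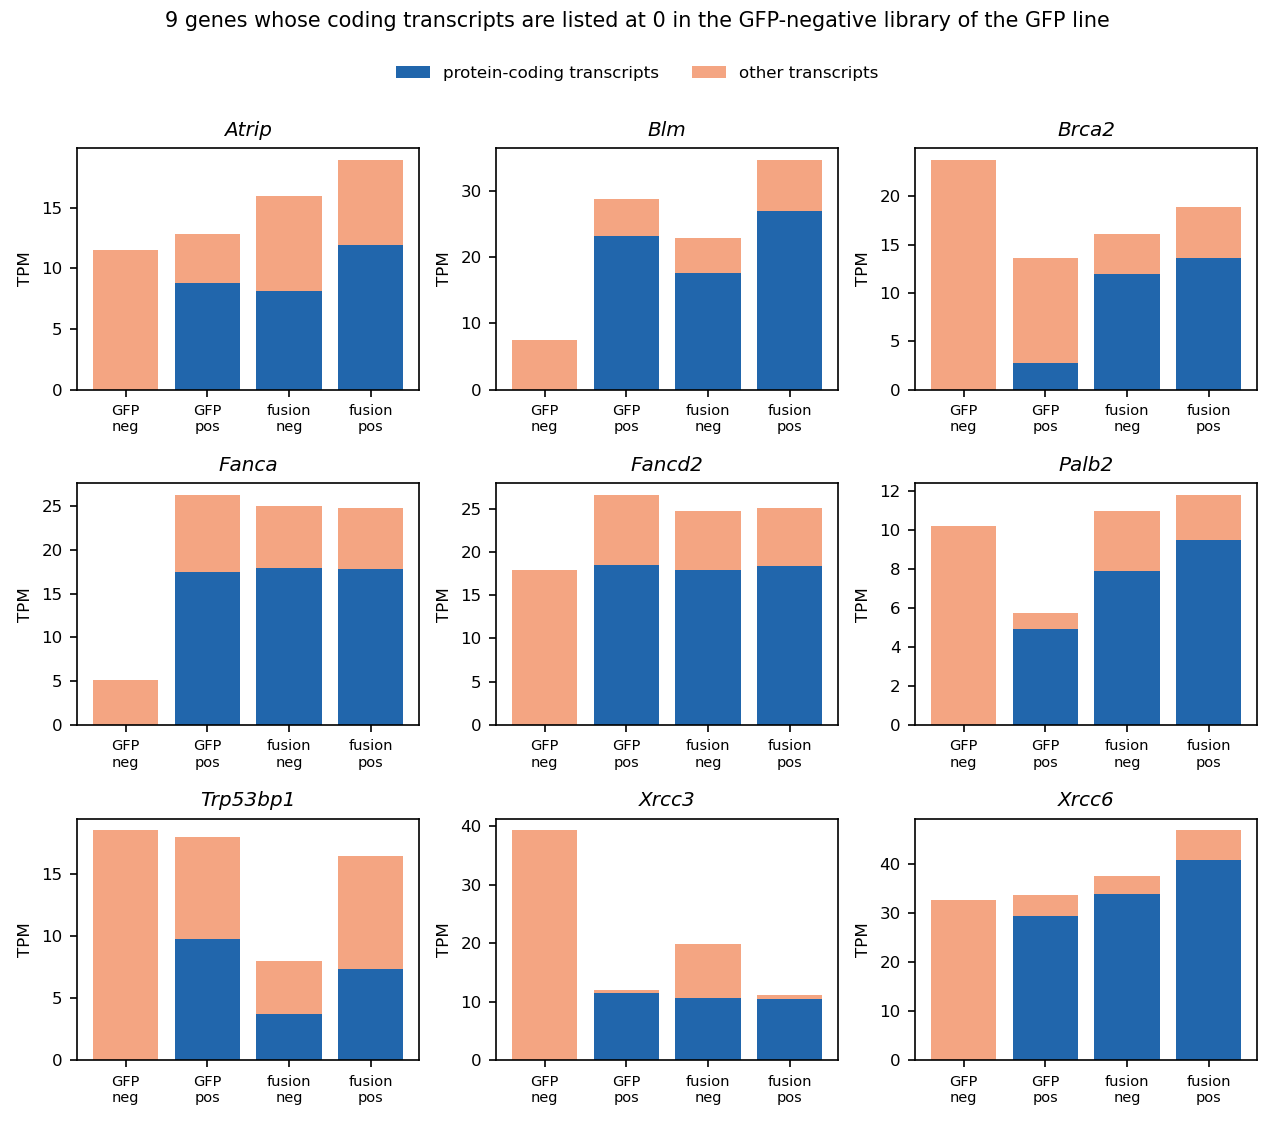
TPM of protein-coding (blue) and other (orange) listed transcripts, stacked, for 9 repair genes in the 4 libraries, where GFP and fusion name the line and neg and pos the sorted population. In the first bar of each panel no part is coding, although the whole bar reaches 5.13 to 39.4 TPM.

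The length of these transcripts was compared as well. The leading coding transcript of the 20 members with 0 in that library had a median length of 3788 bases, and that of the 10 members above 0 had 3412 bases. Over all genes the medians were 3069 and 2235 bases. The members' lengths overlapped widely, from 672 to 10517 bases at 0 and from 1384 to 7335 bases above 0. Members at 0 were also lower in the other libraries, with a median of 8.70 TPM against 20.2 TPM. Whether length, level or the library's depth set these zeros was not tested.

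Single transcripts were compared in the same way. This comparison, chosen after the values were seen, took transcripts at 5 TPM or more in either library of each line. Of 42 such transcripts from 27 members, 7 were 2-fold or more higher in GFP-positive cells of both lines and 3 were lower. That is 16.7% and 7.14%, against 6.92% and 2.2% of all 12292 transcripts. Of the 7, 6 were listed at 0 in the negative library of the GFP line, so they entered there through the positive library and had to differ. Among the 21 above 0 in every library, 1 was higher (Parp1-205) and 3 were lower, which is 4.76% and 14.3%, against 2.76% and 3.04% of 8154 transcripts. Among 68 transcripts of other repair genes, 8 were higher and 3 lower. The members higher in both lines had a median length of 3056 bases and those lower 771 bases, and over all transcripts the medians were 2003 and 927 bases.

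In Topbp1 a full-length model and a fragment differed in opposite directions. Its full-length coding model, Topbp1-201, spans chr9:103305215-103350428 on the plus strand of GRCm38 with 28 exons and 4545 coding bases. It was at 18.4 and 71.1 TPM in the fusion line and at 0 as listed and 28.1 TPM in the GFP line. A coding fragment of 771 bases, Topbp1-203, was at 17.5 and 7.86 TPM in the fusion line and at 34.9 and 10.5 TPM in the GFP line. In each line the long model was the higher in GFP-positive cells and the fragment the lower.

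The fragment has 6 exons, so most of the long model lies outside it. Within the span of the fragment, Topbp1-201 holds a 147-base exon at chr9:103335812-103335958 that Topbp1-203 skips. The GENCODE M21 sequences around this exon are shown because they tell the models apart where they overlap, with the exon in capitals:
Topbp1-201: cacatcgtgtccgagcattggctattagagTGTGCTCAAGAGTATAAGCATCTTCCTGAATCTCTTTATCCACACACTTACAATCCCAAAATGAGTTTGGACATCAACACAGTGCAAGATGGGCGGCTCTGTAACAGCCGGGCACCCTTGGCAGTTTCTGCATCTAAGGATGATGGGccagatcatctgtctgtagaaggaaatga
Topbp1-203: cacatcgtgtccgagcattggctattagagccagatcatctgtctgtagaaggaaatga

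Parp1-205 had the largest value of the 7. It lies at chr1:180598225-180600196 on the plus strand and keeps the 441-base intron at chr1:180599655-180600095 that the coding model removes. It was at 3.38 and 68.4 TPM in the fusion line and at 9.68 and 74.99 TPM in the GFP line. Both positive libraries lay far above both GFP-negative ones, with log2 ratios of 3.99 and 2.83. The difference in Parp1 between populations of the fusion line lay in this noncoding model. Most of the kept intron is not particular to this model. Parp1-203, which spans it and also keeps an intron, was at 0.668 and 0.0796 TPM in the fusion line. In the GFP line Parp1-203 was at 1.33 and 0.278 TPM, so it was lower in GFP-positive cells of both. A stretch of 25 bases across the end of that intron is found in Parp1-205 and no other Parp1 transcript of GENCODE M21. It is shown as the mark of the model:
Parp1-205: tcttacaggtttgggaaaaaccacc

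Single models of the MRN genes Mre11a and Nbn also differed more than their gene sums in the fusion line. Mre11a-202, the long coding model of 5660 bases and 19 exons, was at 0.759 and 10.5 TPM in the fusion line and at 0 as listed and 10.3 TPM in the GFP line. Nbn-202, a coding model of 1752 bases that lacks the gene's last exons, was at 0.834 and 11.8 TPM in the fusion line and at 0 as listed and 11.5 TPM in the GFP line. The 16-exon Nbn-201 was at 7.62 and 0.160 TPM in the fusion line. In the GFP line it was at 0 as listed and 2.08 TPM. As listed, the Nbn models thus differed in opposite directions in the fusion line. Nbn-202 holds no stretch of GENCODE M21 sequence that Nbn-201 lacks, so the split of reads between them is an estimate.

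Exo1 also paired a long model with a fragment. Exo1-201, with 15 exons and 7796 bases, was at 2.58 and 9.82 TPM in the fusion line and at 0 as listed and 10.2 TPM in the GFP line. Exo1-207, a fragment of 968 bases, was at 7.24 and 0.0741 TPM in the fusion line and 9.29 and 0.0447 TPM in the GFP line. The gene sums of Exo1 lay between 10.7 and 12.7 TPM in every library, a narrower range than that of either model.

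Lig3-202 and Fance-213 completed the 7. Lig3-202 was at 2.22 and 5.64 TPM in the fusion line and at 0 as listed and 6.55 TPM in the GFP line. It ends in its own 155-base exon at chr11:82800499-82800653 and so codes for another end of the ligase than Lig3-210, the highest other model. Lig3-210 was at 5.82 and 9.91 TPM in the fusion line and at 0 as listed and 6.36 TPM in the GFP line. A coding stretch of 60 bases across the join into that exon, which no other Lig3 transcript of GENCODE M21 holds whole, is shown to mark that end:
Lig3-202: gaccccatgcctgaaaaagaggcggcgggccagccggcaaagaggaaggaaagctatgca

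Fance-213, a fragment of 672 bases that skips the 126-base exon at chr17:28322646-28322771, was at 4.54 and 10.7 TPM in the fusion line and at 0 as listed and 9.82 TPM in the GFP line. The third transcript that was lower was Xrcc3-208, a model of 535 bases that GENCODE M21 types as keeping an intron. It was at 8.37 and 0.101 TPM in the fusion line and 24.2 and 0.0617 TPM in the GFP line. This is most of the difference in the Xrcc3 sum in the fusion line. Its exons overlap those of Klc1 on the other strand, and those of Mre11a-202 overlap Ankrd49 likewise. The protocol names no strand-marking step, so reads of such partners cannot be told apart. Exons of 20 of the 45 members overlap a gene on the other strand.

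**Figure D5:**
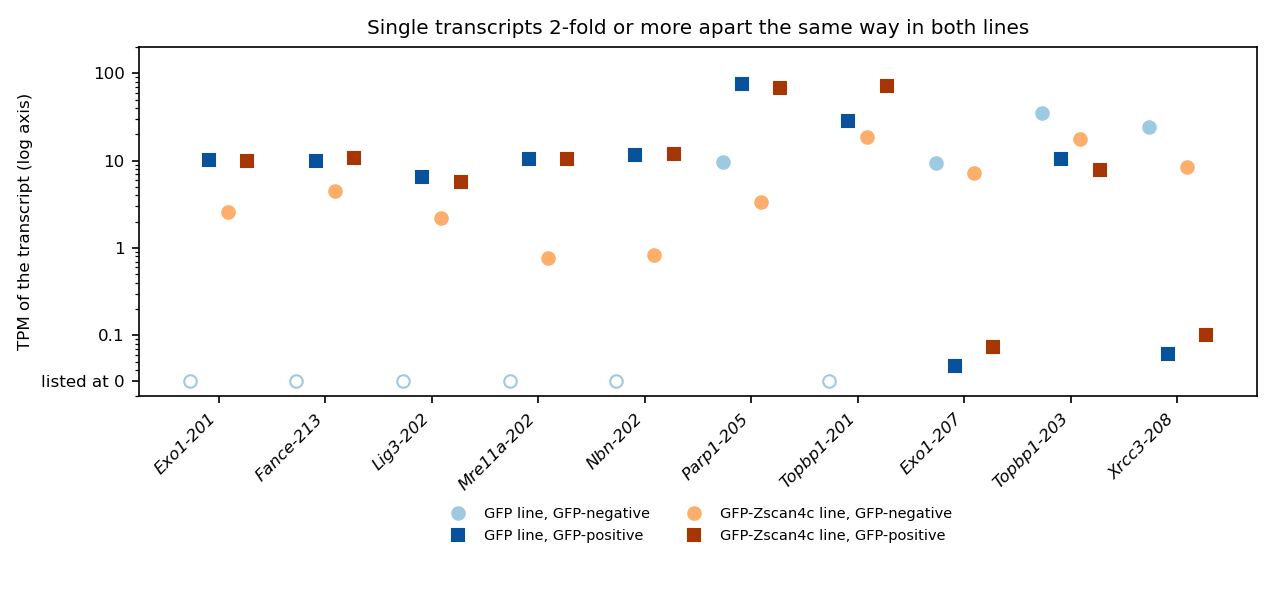
TPM on a log axis of the 10 repair gene transcripts that were 2-fold or more apart the same way in both lines, the 7 higher ones first. Circles are GFP-negative and squares positive libraries, blue for the GFP line and orange for the fusion line, 1 library each; open symbols are listed at 0. For the first 7 both squares lie above both circles, and for Exo1-207, Topbp1-203 and Xrcc3-208 below them.

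The transcript with the highest TPM of its gene also differed between populations. Among genes with several listed transcripts and 5 TPM or more in both libraries of the fusion line, the leading transcript was another one in 7 of 28 members, or 25%, and in 18.3% of 6065 genes. The 7 were Chek1, Exo1, Fancg, Mdc1, Mre11a, Nbn and Palb2. In the GFP line it was another one in 16 of 22 members, or 72.7%, and in 43.9% of 4390 genes. Between the positive libraries of both lines it differed in 4 of 29 members, or 13.8%, and in 18.2% of 6215 genes.

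Other genes of these pathways were read from a list of 75 with a row. Of 63 tested in the fusion line, 7 were 2-fold or more higher and 0 lower, with a median of 0.16, against the 8.23% and 3.14% given above for all genes. Fam175a, the Abraxas scaffold of the BRCA1-A complex, was at 1.18 and 11.4 TPM in the fusion line and 0.788 and 10.9 TPM in the GFP line. Ube2t, the ubiquitin-conjugating enzyme of the Fanconi core, was at 23.5 and 54.4 TPM in the fusion line and 19.7 and 42.2 TPM in the GFP line. These 2 genes were 2-fold or more higher in both lines and above 0 everywhere. Poll, a polymerase of end joining, was at 0 as listed and 8.96 TPM in the fusion line and at 0 as listed and 8.30 TPM in the GFP line. The others were Rad17, Top3a, Fan1 and Rev3l. Fan1, a crosslink nuclease, was at 1.09 and 9.01 TPM in the fusion line and 0.875 and 1.46 TPM in the GFP line.

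Repair genes vary through the cell cycle, so cycle genes were read beside them. The median log2 ratio in the fusion line was 0.01 over 25 S phase genes and 0.32 over 26 genes of G2 and mitosis, of which 25 were above 0. The members' median of 0.22 lay between these values, and the part of the cycle in any repair gene's ratio was not tested.

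Promoters were read for the 36 members with a RefSeq promoter on GRCm38.p6, from 250 bases before to 50 bases after the start. The E2F site, through which cell cycle factors act, was searched as TTTCCCGC, TTTGGCGC, TTTCGCGC and TTTGCCGC on both strands. It was found in 8 members, or 22.2%, and in 2.605% of 27025 genes, and in 4 of 56 other repair genes. The members were Bard1, Brca2, Chek2, Fancg, Mdc1, Rad51c, Topbp1 and Xrcc6. Their median log2 ratio in the fusion line was -0.04, from -0.71 to 0.90, against 0.24 for the 28 without a match. A run of 5 CA pairs on either strand, the kind of microsatellite named in the study's title, was found in 1 member, Brca2, and in 1.86% of genes. A match is a run of letters and not a measured binding site.

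Of the 8, 5 hold the match upstream of the GENCODE start of the gene. Their windows, which stop at that start, are shown with the match in capitals, on the strand of the gene. They lie at chr1:71103148-71103207 for Bard1 (minus strand), chr5:150522427-150522486 for Brca2, chr5:110839805-110839864 for Chek2, chr17:35841456-35841497 for Mdc1 and chr9:103305172-103305214 for Topbp1 (plus strand):
Bard1: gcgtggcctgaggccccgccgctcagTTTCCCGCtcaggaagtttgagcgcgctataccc
Brca2: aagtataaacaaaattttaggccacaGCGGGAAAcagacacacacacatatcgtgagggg
Chek2: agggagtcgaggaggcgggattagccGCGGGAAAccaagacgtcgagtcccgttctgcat
Mdc1: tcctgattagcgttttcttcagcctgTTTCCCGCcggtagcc
Topbp1: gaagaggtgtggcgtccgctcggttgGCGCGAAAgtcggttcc
Their log2 ratios in the fusion line were -0.01 for Bard1, 0.22 for Brca2, -0.11 for Chek2, -0.71 for Mdc1 and 0.90 for Topbp1, so members with this match did not share a direction.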

How the data were processed

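RNA was measured in 4 sorted populations, 1 library each. The authors deposited TPM per transcript, made with HISAT2 2.1.0, StringTie 1.3.5 and CASAVA on GRCm38 (mm10) per the submitters' processing notes. Which options and annotation were used, and why these 58853 transcripts were listed, is not given in the sources used here. Because TPM hold no read numbers, depth is unknown and values carry no counting error.

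TPM were summed per gene symbol. Ratios used log2(TPM + 1), and counts of genes 2-fold apart took those reaching 5 TPM in either library, with no test. limma 3.58.1 (R 4.3.3, trend and robust, two-sided, Benjamini-Hochberg adjusted) was fitted across all 4 libraries with GFP status and line as terms, for genes reaching 1 TPM in 2 libraries. The spread it measures is the disagreement of the lines in the GFP difference, which also holds any effect of clone and construct. Separate cultures are not stated, so this spread is no measure of variation between replicate cultures.

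Transcript types, lengths, exons and sequences came from GENCODE M21 on GRCm38, where 465 listed transcripts had no match, and promoters from RefSeq on GRCm38.p6. Of the 342 GENCODE transcripts of the 45 members, 248 were analysed here. The members, gene lists and tests were chosen with earlier results of these data known. All members are named. The rule gave every library's value to genes 2-fold apart in the fusion line, the 2 highest and 2 lowest ratios of each group, Brca1, Brca2, Atm, Chek1, Fancd2, Xrcc6, Parp1, H2afx and genes listed at 0, and values were given for the others as well. Alternatives were pseudocounts of 0.1 and 5 TPM, other filters, median-ratio and quantile scaling, the highest transcript per gene, genes above 0 everywhere, and for limma no line term and each library left out. Protein-coding transcripts alone, and the comparisons of single transcripts, were added after seeing the data.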

Additional observations from a re-analysis of the deposited data

Results flagged for a closer look

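For 3 members the log2 ratio had opposite signs in the 2 lines, with a size of 0.5 or more in both and of 1 or more in at least 1 of them. Each line has 1 library per population, so the difference between lines was not tested. Fancc had a log2 ratio of -3.47 in the fusion line and 2.71 in the GFP line, and Rbbp8 had -2.98 and 3.24. Both genes were listed at 0 in the positive library of the fusion line and in the negative library of the GFP line, so each ratio rests on a listed 0. Mdc1, which was above 0 in every library, had -0.71 in the fusion line and 1.06 in the GFP line.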

How the results depend on the processing

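Depth, which TPM do not keep, limits low and listed-at-0 genes most. In the fusion line the members' median ratio was 0.07 under median-ratio scaling and -0.0641 under quantile normalization. These settings moved the median of all genes from 0.14 to -0.01 and -0.04 and left the members 0.08 above and 0.03 below it. The share of 2-fold calls over all genes that were higher went from 72.4% to 63.3% and 59.8%. The count of members higher there was 0 with a filter of 10 TPM, a pseudocount of 5 TPM or quantile normalization, 2 without a filter or with a pseudocount of 0.1 TPM, and 3 with the highest transcript or coding transcripts only. The count lower was 1 with the filter of 10 TPM, 0 over genes above 0 everywhere and 4 under quantile normalization. The Fanconi median was -0.00552 over genes above 0 everywhere, -0.15 under median-ratio scaling and -0.18 under quantile normalization, which also gave -0.11 for recombination.

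In the GFP line the members' median was 0.31 with the filter of 10 TPM or over genes above 0 everywhere, 2.88 with the highest transcript, 0.91 without a filter, 1.90 with coding transcripts, 0.42 with a pseudocount of 5 TPM and 0.22 under quantile normalization. The last moved the share of higher calls over all genes from 81.6% to 65.6%, and coding transcripts moved it to 92.7%. Members higher numbered 9 with the filter of 10 TPM and 7 over genes above 0 everywhere. Members lower numbered 4 with the highest transcript, 1 with coding transcripts or a pseudocount of 5 TPM and 5 under quantile normalization. The damage signalling median was 0.73 with the highest transcript and 0.50 with coding transcripts, the recombination median was -0.15 under quantile normalization, and Xrcc3 was at 3.65 with coding transcripts, against a negative library listed at 0.

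Between positive libraries the members' median was -0.0113 under quantile normalization. Members higher numbered 0 over genes above 0 everywhere, 3 with the highest transcript or coding transcripts and 2 with a pseudocount of 0.1 TPM. Members lower numbered 1 with the filter of 10 TPM or over genes above 0 everywhere and 2 with the highest transcript. The highest transcript gave medians of -0.0127 for damage signalling and 0.20 for Fanconi. limma called 1 member, among 328 genes, under quantile normalization, and from 0 to 17 members when 1 library was left out. The 17, among 4591 genes, came without the negative library of the fusion line, which leaves the library with the most zeros as the only GFP-negative one, assumed to vary like the GFP-positive pair. Except where the construction of a setting shows it, the cause was not tested. Among single members, 1 ratio called in the main analysis changed sign, that of Xrcc3. No paired analysis was possible because each group has 1 library and no replicate numbers to pair by, beyond the line term that the limma model already holds.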
